A study of Mus musculus with 18 samples.

Results

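Mouse bone marrow-derived macrophages that received dimethyl itaconate before LPS were compared with macrophages that received vehicle before LPS. The comparison used 6 of the 18 RNA libraries of the series, 3 in each group, and every gene counted in them. All the cells were wild-type C57BL/6 macrophages matured from marrow with 20 ng/ml M-CSF, which drives marrow progenitors to become macrophages. In the group called compound plus LPS here, cells were given 0.25 mM dimethyl itaconate for 12 h and then 100 ng/ml LPS for 4 h. In the group called LPS, cells were given vehicle for 12 h and then the same LPS for 4 h. A further pair of groups of 3 libraries each, compound without LPS and vehicle without LPS, served for a test of whether the effect of the compound differed with LPS. The labels do not say whether the compound stayed in the medium during stimulation, or whether replicates were separate animals or separate cultures. The p-values therefore measure the spread between these libraries, which may be technical.

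LPS (lipopolysaccharide) is a part of the outer membrane of Gram-negative bacteria. Macrophages sense it with TLR4, which turns on NF-kB and, through interferon beta and STAT factors, a later set of interferon-induced genes. Itaconate is made from a citric acid cycle intermediate by the enzyme ACOD1 in LPS-stimulated macrophages, and dimethyl itaconate is an ester of it that enters cells and reacts with thiols such as that of glutathione. Thiol-reactive compounds modify KEAP1, which then no longer marks the transcription factor NRF2 for degradation, and NRF2 raises genes of glutathione synthesis and detoxification through antioxidant response elements (AREs) in their promoters.

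RNA was read from the 3′ end of polyadenylated transcripts. The compound plus LPS libraries held 5959474, 4106831 and 4032466 counts in genes, and the LPS libraries held 3761119, 2294042 and 955718. LPS replicate 3 stood apart from the other libraries. It was the shallowest, its log2 CPM (read counts scaled to library size) correlated with the other LPS libraries across genes with r of 0.78 and 0.762, and a single gene, Prdx1, took 17.6% of its counts. Within compound plus LPS the same correlations were 0.944 to 0.965, and LPS replicates 1 and 2 gave 0.898. Counts of called genes are therefore also given without LPS replicate 3. The macrophage label fitted the RNA. None of the 16 macrophage markers was at 0 across the 6 libraries, and they summed to between 5904 and 6650 CPM in compound plus LPS and between 4316 and 6543 CPM in LPS. In RNA from a mixed well, fewer cells of a type and less RNA per cell cannot be told apart.

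Of 8575 genes tested, 653 (7.62%) were called, 273 (3.18%) higher and 380 (4.43%) lower in compound plus LPS than in LPS, at an adjusted p under 0.05 (edgeR quasi-likelihood test, Benjamini-Hochberg). Without LPS replicate 3, 680 genes (7.5%) were higher and 847 (9.34%) lower of 9064 tested (16.8% called), and these held all 273 and all 380 genes of the 6-library test. The counts of gene list members below stand beside these shares of all genes. Without any one compound plus LPS library fewer genes passed, 62 to 96 higher and 82 to 127 lower. Levels are given as CPM scaled by TMM (a correction for differences in RNA composition between libraries), replicate by replicate. Differences are log2 fold changes of compound plus LPS over LPS ± the standard error of the fit, with n = 3 libraries in each group. The 273 higher genes had log2 fold changes of 1.25 to 9.14 with a median of 2.43, and the 380 lower genes had -8.31 to -1.11 with a median of -2.25. The median over all genes tested was 0.08. In all 273 higher genes and in 379 of the 380 lower genes, the 3 libraries of one group lay apart from the 3 of the other. Over all genes tested, 18.1% lay apart with compound plus LPS higher and 12.9% with it lower.

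**Figure D1:**
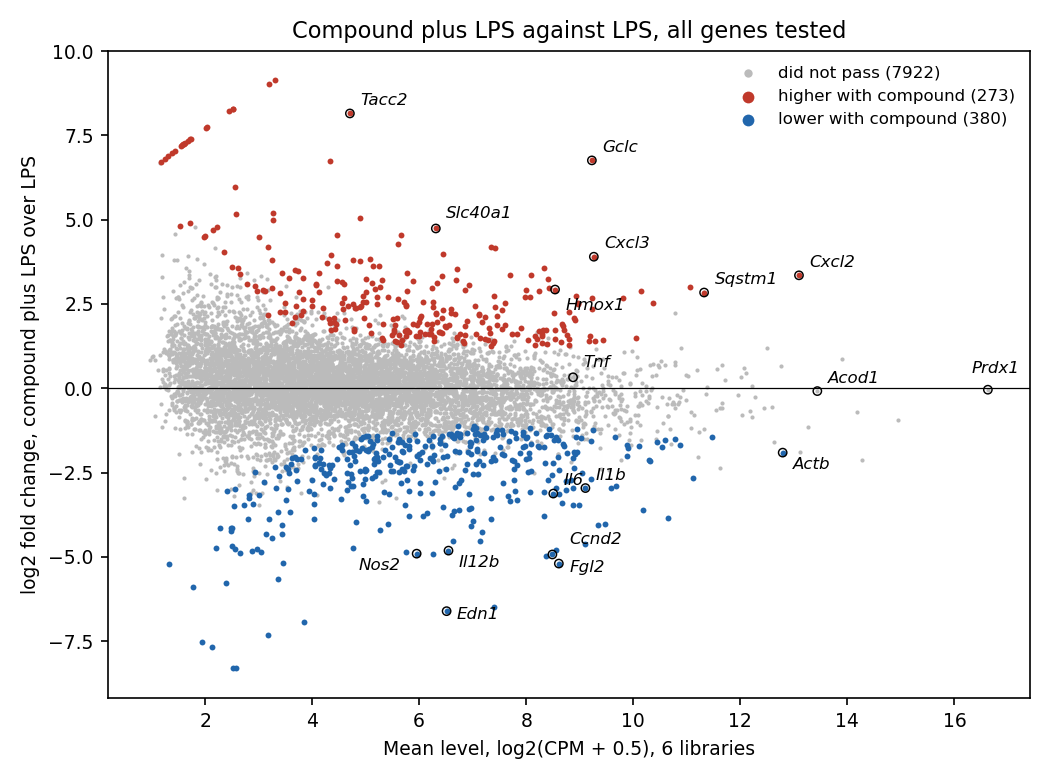
Mean level, as log2(CPM + 0.5) over the 6 libraries, against the log2 fold change of compound plus LPS over LPS for the 8575 genes tested. Red points are the 273 genes called higher and blue points the 380 called lower, circled genes are named in the text, and the straight run of red points at the upper left are genes with 0 or nearly 0 counts in LPS, whose fold changes depend on the prior count.

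Of the 12 greatest increases among genes at 20 CPM or more, 2 were genes of glutathione synthesis, Gclc and Gss. Gclc encodes the catalytic part of glutamate-cysteine ligase, which joins glutamate and cysteine. It had 1106, 1657 and 799 CPM in compound plus LPS against 13.6, 14.2 and 1.42 CPM in LPS. The lowest compound plus LPS library was far above the highest LPS library, and the log2 fold change was 6.76 ± 0.63 (adjusted p = 0.00032). Tacc2, which encodes a coiled-coil protein of centrosomes, had 36.2, 60.1 and 56.8 CPM in compound plus LPS and a single count over the LPS libraries. Its ratio was 340, with an exact 95% counting interval from 60.9 to 13500. Acss2, the cytosolic enzyme that makes acetyl-CoA from acetate, had 603 counts in compound plus LPS and 2 in LPS, a ratio of 138 with an interval from 38 to 1140. Both LPS counts were in replicate 3, and without that library there was no LPS count. Acss2 and Gss overlap on opposite strands of chromosome 2 in the GENCODE annotation, and the sources used here do not give the strand setting of the counting. Other genes named here also overlap a protein-coding gene in that annotation. Tacc2, Fgl2, Shisa3, Ccnd1, Sqstm1, Dusp1, Il18, Ccl2, Slc48a1, Mmp12, Atp6v1h, Psmb9 and Wars do so on the opposite strand. Txnrd1, Mafg, Irf8, Hif1a, Cfb and Hsd3b7 do so on the same strand.

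The other greatest increases were in genes of varied functions. Slc40a1, the iron exporter ferroportin, had 148, 155 and 154 CPM in compound plus LPS against 6.81, 4.32 and 5.69 CPM in LPS, a log2 fold change of 4.74 ± 0.39 (adjusted p = 0.00031). Rabgap1l, which encodes a RAB GTPase-activating protein, had 302, 314 and 302 CPM in compound plus LPS against 20.7, 14.3 and 14.2 CPM in LPS (4.19 ± 0.35, adjusted p = 0.00031). In both genes the spread within a group was small beside the gap between groups. Slpi, a secreted inhibitor of serine proteases, averaged 41.8 ± 6.5 CPM in compound plus LPS and 1.24 ± 1.8 CPM in LPS (SD, n = 3 each). Mfsd6, a membrane protein, Serpinb9b, a serpin, Gdf15, a stress-induced hormone of the TGF-beta family, and Hsd3b7, an enzyme of bile acid synthesis, had log2 fold changes of 4.55, 4.16, 3.99 and 3.95. Serpinb9b has related copies, of which Serpinb9e, Serpinb9f and Serpinb9g had no count in the 6 libraries. Whether reads of a related copy were counted as Serpinb9b was not tested, so the source of its reads is uncertain. In RefSeq's annotation of build GRCm38.p6, Gclc (Entrez gene 14629) lies on chromosome 9 from 77754535 to 77794489, Slc40a1 (Entrez gene 53945) on chromosome 1 from 45908070 to 45926532 and Rabgap1l (Entrez gene 29809) on chromosome 1 from 160219174 to 160793476.

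The 12 greatest decreases included genes for secreted proteins, enzymes and surface proteins. Edn1, the vasoconstrictor peptide endothelin 1, had 0.75, 2.53 and 2.36 CPM in compound plus LPS against 126, 225 and 188 CPM in LPS, a log2 fold change of -6.61 ± 0.55 (adjusted p = 0.00031). Shisa3, a regulator of WNT and FGF signalling, had 3 counts in compound plus LPS and 228 in LPS, so it was lower by a ratio of 166 with a counting interval from 56.2 to 813. Lipg, endothelial lipase, averaged 3.74 ± 2.1 CPM in compound plus LPS and 332 ± 169 CPM in LPS (SD, n = 3 each). Fgl2, a fibrinogen-like protein with immunoregulatory activity, had 15.1, 23 and 24.1 CPM in compound plus LPS against 782, 778 and 718 CPM in LPS (-5.20 ± 0.37, adjusted p = 0.00023). Ch25h, the enzyme that makes 25-hydroxycholesterol, and Nos2, the inducible nitric oxide synthase, fell by 4.92 and 4.90 on the log2 scale. For Nos2 the libraries were at 5.96, 4.15 and 1.65 CPM in compound plus LPS and at 163, 161 and 32.7 CPM in LPS, so LPS replicate 3 was low within its group but still above every compound plus LPS library. Igsf9, an adhesion protein, had 0.89, 0 and 0.47 CPM in compound plus LPS against 6.05, 8.2 and 47 CPM in LPS, and here LPS replicate 3 carried most of the mean. Its log2 fold change was -5.17 ± 1.12 with that library and -3.78 without it. Cnn3, an actin-binding calponin, fell by 4.85. By the same annotation Edn1 spans bases 42301476 to 42307990 of chromosome 13 and Fgl2 bases 21372673 to 21378386 of chromosome 5, while Nos2 is found at 78920787 to 78960226 of chromosome 11.

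**Figure D2:**
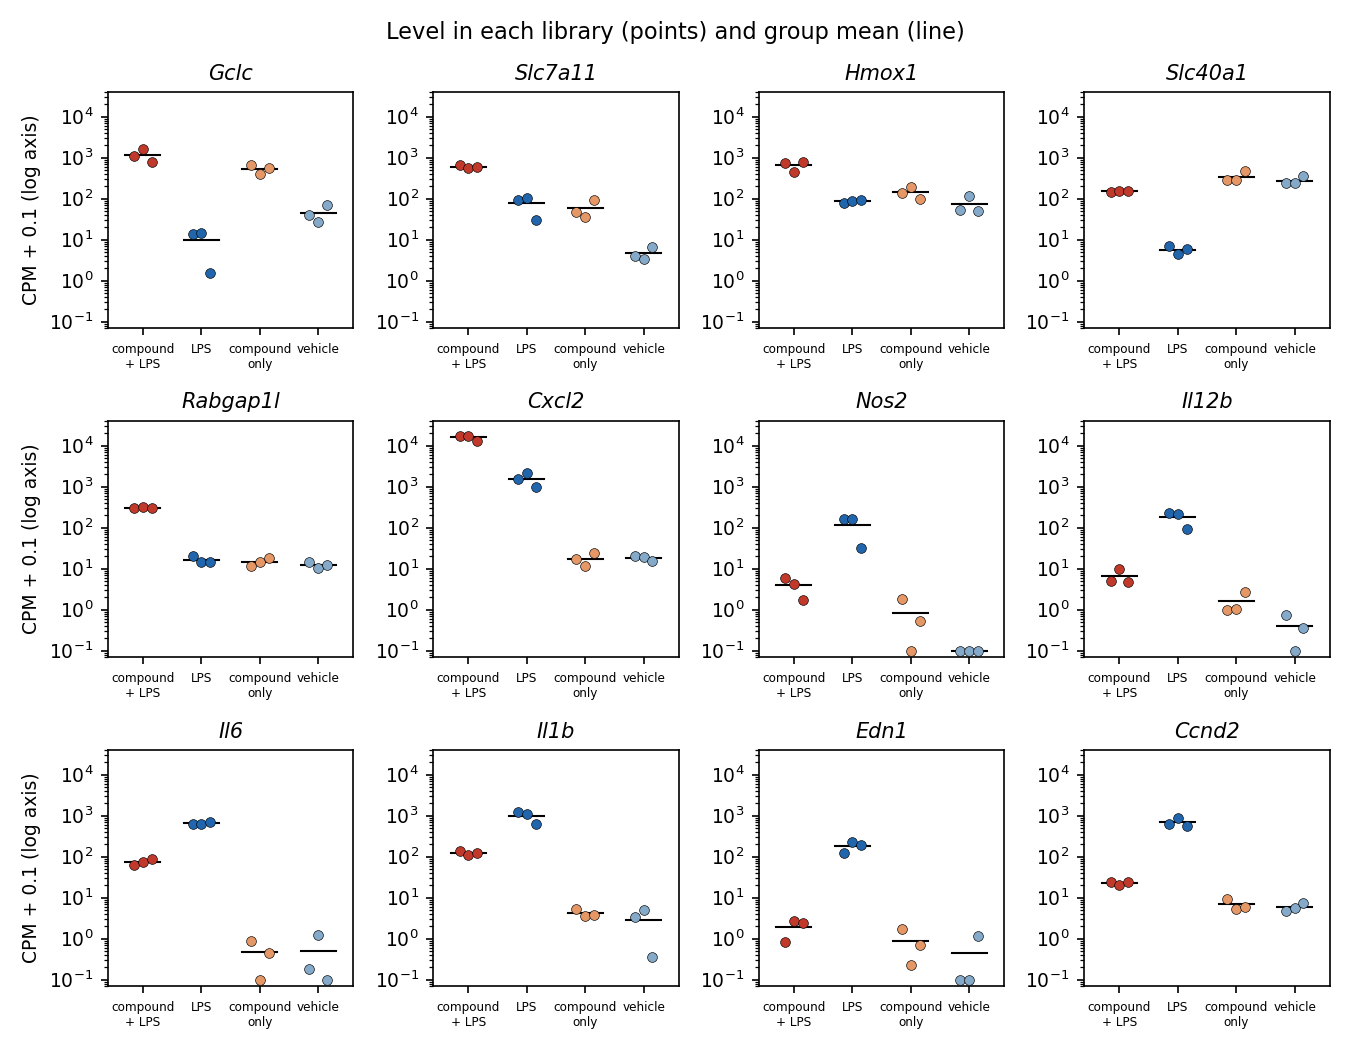
Level of 12 genes in each library, as CPM + 0.1 on a log axis, with a line at the group mean, for compound plus LPS, LPS, compound without LPS and vehicle without LPS (3 libraries each). Compound plus LPS lies above LPS in the first 6 panels and below it in the last 6, with no overlap of their libraries.

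Glutathione synthesis and cystine import had the highest share of members called higher among the lists in the plot of gene lists. Of 10 members 6 passed the filter on low counts, and of these 4 were higher and none lower, with a median log2 fold change of 2.93, and without LPS replicate 3 it was 7 of 8. Gclm, the regulatory partner of Gclc, had 2155, 2128 and 1730 CPM in compound plus LPS against 294, 365 and 149 CPM in LPS (2.89 ± 0.41, adjusted p = 0.0025). Slc7a11, the cystine importer that supplies cysteine for glutathione, had 681, 551 and 592 CPM in compound plus LPS against 93.3, 107 and 29.9 CPM in LPS (2.96 ± 0.45, adjusted p = 0.004). Gss, which completes glutathione, had 103, 74.2 and 99 CPM in compound plus LPS against 2.52, 9.93 and 0 CPM in LPS (4.27 ± 0.69, adjusted p = 0.005). For all 3 genes the groups were far apart. Gsr, glutathione reductase, and Slc3a2, the partner chain of Slc7a11, had log2 fold changes of 0.73 ± 0.37 (adjusted p = 0.29) and 1.42 ± 0.61 (adjusted p = 0.2), and each was called higher without LPS replicate 3 (adjusted p = 0.017 and 0.023).

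Detoxification genes formed the second group. Of 18 tested members that act on quinones, carbonyls and enals or export their conjugates, 7 were higher and none lower, with a median of 1.29. Without LPS replicate 3 it was 10 of 19. Ptgr1, an enal reductase, had 332, 386 and 419 CPM in compound plus LPS against 48.7, 25.5 and 35.6 CPM in LPS (3.36 ± 0.37, adjusted p = 0.00069). Adh7, an alcohol dehydrogenase, had 9.24, 14.5 and 7.78 CPM in compound plus LPS and no count in LPS, so it was at least 24.1-fold higher, taking 3 counts over the 3 LPS libraries as the floor. Abcc4 and Abcc1, exporters of conjugates, rose by 3.20 ± 0.62 and 1.72 ± 0.38 on the log2 scale, and Cbr3, a carbonyl reductase, rose by 2.90 ± 0.39. Nqo1, the quinone reductase often used to read NRF2 activity, had 86.7, 75.3 and 78 CPM in compound plus LPS against 14.4, 7.77 and 52.6 CPM in LPS. Its groups did not overlap, but LPS replicate 3 was several times the other LPS libraries. The log2 fold change was 1.81 ± 0.60 (adjusted p = 0.1), and without that library it was 2.82 (adjusted p = 8e-05). With replicate number as a block the adjusted p was 0.019. Of 7 glutathione transferases tested, which attach glutathione to reactive molecules, 2 were higher, and 4 without LPS replicate 3. The 2 were Gsta3, with 59.5, 52.3 and 58.7 CPM in compound plus LPS against 1.51, 2.59 and 0 CPM in LPS (5.05 ± 0.57, adjusted p = 0.00072), and Gstm1 (1.67 ± 0.36, adjusted p = 0.018).

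Of 19 tested genes of peroxide removal, 3 were higher and none lower, and their median of 0.44 was closer to that of all genes. Leaving out LPS replicate 3 gave 4 higher, with Prdx1 added, and 1 lower. Srxn1, sulfiredoxin, which restores overoxidised peroxiredoxins, had 907, 744 and 900 CPM in compound plus LPS against 126, 92.8 and 162 CPM in LPS (2.75 ± 0.35, adjusted p = 0.0013). Txnrd1, thioredoxin reductase, rose by 2.68 ± 0.51 and Cat, catalase, by 2.27 ± 0.37. Prdx1, a peroxiredoxin, cannot be placed from these libraries. It had 82295, 82318 and 134330 CPM in compound plus LPS against 36181, 32480 and 239070 CPM in LPS, so the lowest and the highest library were both in LPS. The log2 fold change was -0.04 ± 0.76 (adjusted p = 0.99) with all libraries and 1.54 (adjusted p = 0.0019) without LPS replicate 3.

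Of 15 tested genes of haem breakdown and iron handling, 5 were higher and none lower, with a median of 0.86, and without LPS replicate 3 it was 7 higher. Hmox1, haem oxygenase 1, had 734, 455 and 781 CPM in compound plus LPS against 77.4, 88.1 and 93.9 CPM in LPS (2.93 ± 0.35, adjusted p = 0.001). Besides Slc40a1, the other members called were Slc48a1, a haem transporter (2.54 ± 0.40), Tfrc, the transferrin receptor (1.59 ± 0.40), and Slc11a1, the phagosomal metal exporter NRAMP1 (1.59 ± 0.38). Ftl1, the ferritin light chain, had 4546, 4869 and 4006 CPM in compound plus LPS against 1264, 563 and 11.4 CPM in LPS. It was not called with all libraries (2.86 ± 1.01, adjusted p = 0.12) and was called without LPS replicate 3 (2.29, adjusted p = 0.00027) and with replicate number as a block (adjusted p = 0.015). Among 12 NADPH-making enzymes, Me1, malic enzyme (3.64 ± 0.70), and Pgd of the pentose phosphate pathway (1.29 ± 0.34) were higher, and 2 of 14 were higher without LPS replicate 3. Of 12 tested genes that encode NRF2 and its regulators, 3 were higher, and 5 without LPS replicate 3. The 3 were Sqstm1, the autophagy receptor p62 that binds KEAP1 (4490, 3921 and 5082 CPM in compound plus LPS against 742, 790 and 349 CPM in LPS), Mafg, a small MAF partner of NRF2 (2.08 ± 0.33), and Gsk3b, a kinase that also marks NRF2 for degradation (1.74 ± 0.36). Nfe2l2, the gene of NRF2, had 506, 521 and 330 CPM in compound plus LPS against 235, 162 and 21.3 CPM in LPS. Its groups did not overlap and its log2 fold change was 1.67 ± 0.63 (adjusted p = 0.15), while pairing by replicate number gave an adjusted p of 0.011. Without LPS replicate 3 it was called higher (1.19, adjusted p = 0.012). Keap1 differed by less than the spread between libraries (-0.17 ± 0.60, adjusted p = 0.9).

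The letters of the ARE, TGACNNNGC, were searched on both strands in a window from 250 bases before to 50 bases after the start of each gene (RefSeq promoters, build GRCm38.p6). They were present in 14.0% of the 27025 genes with such a window, in 17.3% of the 6983 tested genes that had one, in 21.1% of 223 genes called higher and in 17.8% of 286 called lower. A match is a description of the letters and not evidence of a bound site. The 150 bases before the start site of 3 genes called higher are shown because they hold the motif, with the matching bases in capitals. Txnrd1 has 3 start sites in the table, and the one with a match is shown.
Gclm, chr3:122245407-122245556, + strand: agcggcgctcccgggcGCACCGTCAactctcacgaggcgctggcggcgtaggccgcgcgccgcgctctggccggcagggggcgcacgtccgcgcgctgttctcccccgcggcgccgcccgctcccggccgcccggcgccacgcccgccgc
Txnrd1, chr10:82859056-82859205, + strand: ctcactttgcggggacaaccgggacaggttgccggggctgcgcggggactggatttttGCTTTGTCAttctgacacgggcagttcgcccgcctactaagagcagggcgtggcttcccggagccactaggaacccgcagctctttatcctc
Gsta3, chr1:21240435-21240584, + strand: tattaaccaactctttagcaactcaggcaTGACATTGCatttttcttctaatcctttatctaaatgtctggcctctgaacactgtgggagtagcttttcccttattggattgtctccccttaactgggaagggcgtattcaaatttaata
The matches begin 134 bases before the start site of Gclm, 92 before that of Txnrd1 and 121 before that of Gsta3. In Gclm and Txnrd1 the motif reads on the opposite strand, and in Gsta3 on the strand of the gene. Among other genes called higher, the windows of Srxn1 and Mafg held a match, and those of Gss, Slc7a11, Cat, Ptgr1 and Sqstm1 did not. Edn1, Fgl2, Otud1, Dusp1 and Tlr9, which were called lower, also had a match. Only exact matches in this window were searched, so an ARE elsewhere would be missed.

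**Figure D3:**
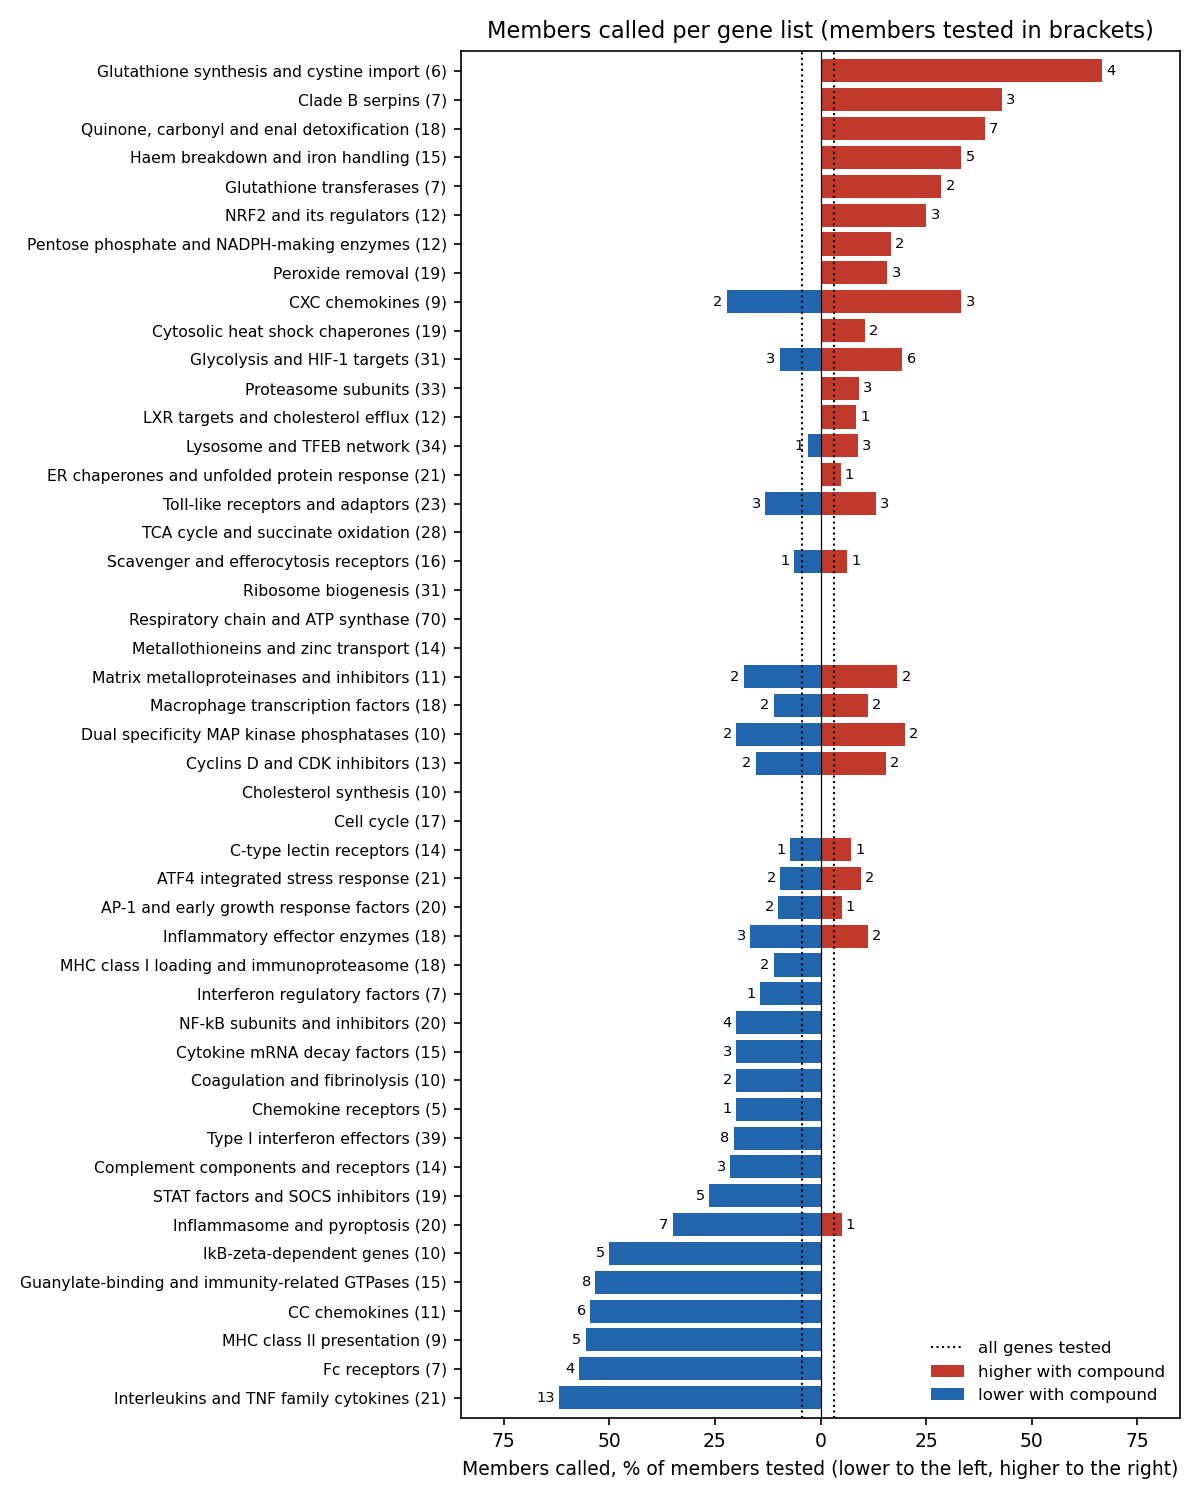
Share of tested members of each gene list that were called higher (red, to the right) or lower (blue, to the left) in compound plus LPS, in percent, with the number called at the end of each bar. Dotted lines mark 3.18% and 4.43%, the shares of all genes called higher and lower, and glutathione synthesis stands at the top while interleukins and TNF family cytokines, with 13 of 21 lower, stand at the bottom.

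Cytokine genes lay at the opposite end. Of 21 interleukins and TNF family cytokines tested, 13 were lower and none higher, with a median log2 fold change of -2.18, and without LPS replicate 3 it was 17 lower. Il12b, the shared chain of IL-12 and IL-23, had 4.92, 9.67 and 4.72 CPM in compound plus LPS against 231, 214 and 93.9 CPM in LPS (-4.81 ± 0.51, adjusted p = 0.00056). Il6 had 61.5, 73.2 and 89.6 CPM in compound plus LPS against 623, 619 and 711 CPM in LPS (-3.12 ± 0.33, adjusted p = 0.00056). Il1b had 141, 113 and 123 CPM in compound plus LPS against 1233, 1082 and 612 CPM in LPS (-2.96 ± 0.37, adjusted p = 0.0013). No compound plus LPS library reached the lowest LPS library in these genes.

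Both activating and restraining cytokines were among the 13. Il10, the anti-inflammatory cytokine, had 0.15, 0.69 and 0.71 CPM in compound plus LPS against 13.6, 12.9 and 15.7 CPM in LPS (-4.75 ± 0.79, adjusted p = 0.0058). Il1rn, the natural blocker of the IL-1 receptor, fell by 3.09 on the log2 scale, close to Il1b, and Il1a fell by 3.64. Il18 had 11, 10.8 and 14.2 CPM in compound plus LPS against 55.7, 34.5 and 83.9 CPM in LPS (-2.25 ± 0.43, adjusted p = 0.011). Il27 and Ebi3, the chains of IL-27, fell by 1.89 and 1.72. Ifnb1, interferon beta, had 1.19, 0.69 and 2.12 CPM in compound plus LPS against 13.6, 13.4 and 8.54 CPM in LPS (-3.16 ± 0.71, adjusted p = 0.023), and with the replicate block its adjusted p was 0.054. Tnf did not move with them. It had 556, 364 and 644 CPM in compound plus LPS against 292, 384 and 575 CPM in LPS, the groups overlapped, and the log2 fold change was 0.33 ± 0.37 (adjusted p = 0.67).

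Chemokines moved in both directions. Of 11 CC chemokines tested, 6 were lower and none higher, with a median of -2.42, and the counts were the same without LPS replicate 3. Of 9 CXC chemokines, 3 were higher and 2 lower, and without LPS replicate 3 it was 3 higher and 4 lower. Cxcl1, Cxcl2 and Cxcl3, which draw neutrophils through CXCR2, were the higher ones. Cxcl2 had 16932, 17664 and 13254 CPM in compound plus LPS against 1581, 2103 and 1007 CPM in LPS (3.35 ± 0.44, adjusted p = 0.0017). Cxcl3 had 1075, 1127 and 1253 CPM in compound plus LPS against 95.3, 63.9 and 71.1 CPM in LPS (3.90 ± 0.35, adjusted p = 0.00032). Cxcl1 had 570, 620 and 639 CPM in compound plus LPS against 81.5, 35.8 and 75.4 CPM in LPS (3.25 ± 0.39, adjusted p = 0.001). The groups were far apart in each.

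Cxcl9 and Cxcl11, which draw T cells through CXCR3, were the lower ones with all libraries. Cxcl9 had 79.1, 67.3 and 73.8 CPM in compound plus LPS against 1481, 1328 and 851 CPM in LPS (-4.05 ± 0.37, adjusted p = 0.00032), and Cxcl11 fell by 4.08. Cxcl10, a further CXCR3 ligand, had 3290, 2759 and 4128 CPM in compound plus LPS against 11516, 4047 and 2955 CPM in LPS. Its groups overlapped and its log2 fold change was -0.86 ± 0.51 (adjusted p = 0.38), and without LPS replicate 3 it was called lower (-1.20, adjusted p = 0.029). Among the CC chemokines, the monocyte attractants Ccl2 and Ccl7 fell by 3.80 and 4.54. Ccl2 was at 38, 35.5 and 56.1 CPM in compound plus LPS and at 504, 479 and 824 CPM in LPS. Ccl22, Ccl8, Ccl12 and Ccl4 also fell, by 4.83, 2.97, 2.42 and 1.52. Ccl3 and Ccl5 had log2 fold changes of -0.22 and -0.04 with overlapping groups (adjusted p = 0.77 and 0.97).

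**Figure D4:**
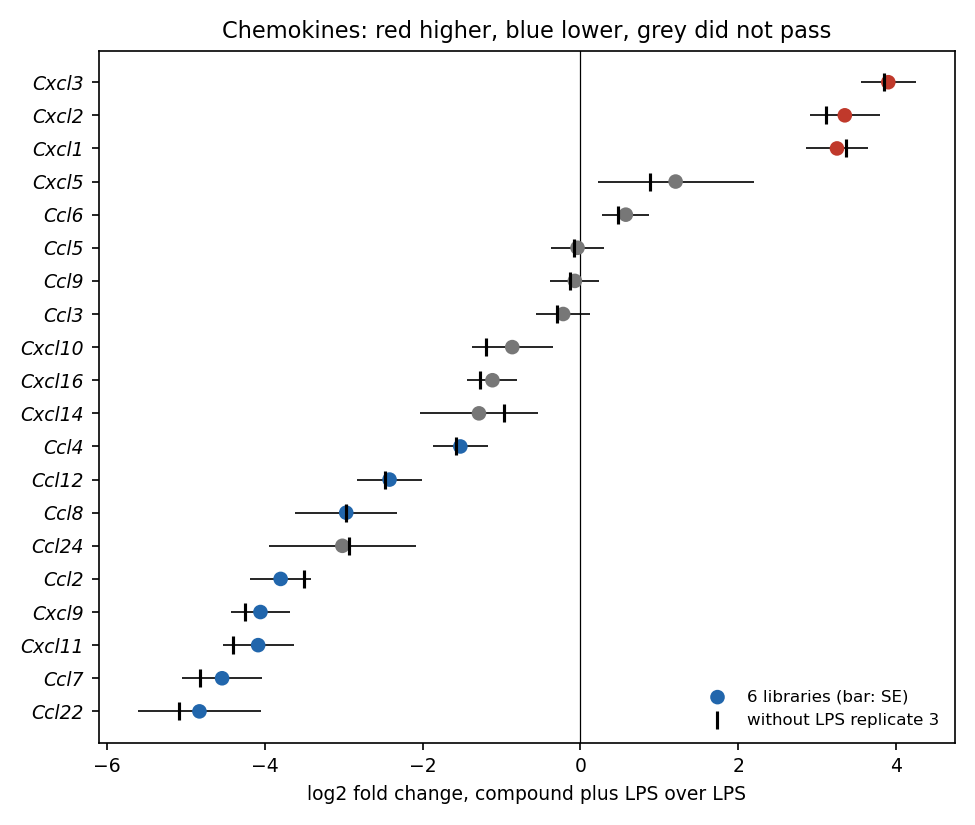
Log2 fold change of compound plus LPS over LPS for the 20 chemokine genes tested, with bars of 1 standard error and a tick for the value without LPS replicate 3. Cxcl1, Cxcl2 and Cxcl3 lie at 3.25 to 3.90, and Cxcl9, Cxcl11, Ccl2, Ccl7 and Ccl22 lie at -3.80 to -4.83.

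The 3 neutrophil-attracting chemokines and Il6, which moved the other way, were compared in a form of the NF-kB site, GGGANNNTCC, searched on both strands in the same window. The motif was in 5.21% of all genes with a window, in 6.52% of genes tested, in 8.97% of those called higher and in 9.44% of those called lower. Each of these 4 promoters holds overlapping matches, one on each strand, shown in capitals. The 150 bases before each start site follow (RefSeq, GRCm38.p6).
Cxcl1, chr5:90891095-90891244, + strand: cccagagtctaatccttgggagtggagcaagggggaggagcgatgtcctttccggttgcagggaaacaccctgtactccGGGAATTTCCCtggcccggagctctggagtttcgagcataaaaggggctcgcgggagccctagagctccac
Cxcl2, chr5:90903749-90903898, + strand: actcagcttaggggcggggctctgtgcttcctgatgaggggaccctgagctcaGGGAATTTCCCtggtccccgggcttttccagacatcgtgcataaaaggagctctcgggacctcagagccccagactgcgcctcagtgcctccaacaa
Cxcl3, chr5:90785951-90786100, + strand: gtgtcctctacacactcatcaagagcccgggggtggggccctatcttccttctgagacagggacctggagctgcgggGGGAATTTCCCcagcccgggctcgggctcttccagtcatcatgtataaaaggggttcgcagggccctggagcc
Il6, chr5:30012964-30013113, + strand: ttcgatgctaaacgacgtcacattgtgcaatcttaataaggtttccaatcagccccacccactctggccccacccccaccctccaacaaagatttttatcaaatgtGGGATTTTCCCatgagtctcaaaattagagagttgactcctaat
The matched letters are GGGAATTTCCC in the 3 chemokines and GGGATTTTCCC in Il6. They begin 71, 97 and 73 bases before the start sites of Cxcl1, Cxcl2 and Cxcl3 and 44 before that of Il6. The motif was thus present in genes that changed in either direction, but not in all that were lower. The windows of Il12b, Il1b, Il1a, Il1rn, Il18 and Cxcl9 held no match, and those of Ifnb1 and Ccl22 did. Only exact matches to these letters in this window were searched. A gene without a match may still hold an NF-kB site in other letters or elsewhere.

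Genes of the interferon response had a smaller median change than the cytokines. Of 39 type I interferon effectors tested, 8 were lower and none higher, with a median of -0.72, and without LPS replicate 3 it was 18 lower. Ifit2 had 1470, 1529 and 1579 CPM in compound plus LPS against 3446, 5679 and 3298 CPM in LPS (-1.44 ± 0.36, adjusted p = 0.035). Ifit1bl1 had 3.73, 0.92 and 7.31 CPM in compound plus LPS against 84, 76.9 and 56.9 CPM in LPS (-4.19 ± 0.62, adjusted p = 0.0034). Isg15, a ubiquitin-like modifier, had 165, 91.7 and 219 CPM in compound plus LPS against 408, 462 and 1830 CPM in LPS, and LPS replicate 3 was the high library. Its log2 fold change was -2.50 ± 0.60 with that library and -1.46 without it. Rsad2, the antiviral enzyme viperin, was among the most abundant of the list and was not called with all libraries (-0.93 ± 0.43, adjusted p = 0.24), but was called without LPS replicate 3 (-1.03, adjusted p = 0.015).

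Guanylate-binding proteins and immunity-related GTPases, which attack the vacuoles of intracellular microbes, had 8 of 15 tested members lower and none higher, with a median of -1.45, and without LPS replicate 3 it was 11 of 16. Gbp4 had 18.8, 9.21 and 14.4 CPM in compound plus LPS against 272, 380 and 171 CPM in LPS (-4.27 ± 0.45, adjusted p = 0.00056). Gbp9, Gbp3, Iigp1 and Gbp2 fell by 3.06, 2.13, 2.01 and 1.78. Gbp4 and Gbp9 overlap on the same strand in the annotation, so their reads may not be separable.

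Genes of antigen presentation and antibody binding were among the lower ones. Of all genes tested, 4.43% were lower with all libraries and 9.34% without LPS replicate 3. Of 9 MHC class II and costimulation genes tested, 5 were lower and none higher, and without LPS replicate 3 it was 7 of 11. Of 18 genes of MHC class I loading and the immunoproteasome, 2 were lower, the peptide transporter chain Tap2 (-1.52 ± 0.33) and the immunoproteasome subunit Psmb9 (-1.87 ± 0.36), with a median of -0.78, and without LPS replicate 3 it was 7 of 18. Cd40, the receptor for T-cell help, had 203, 200 and 224 CPM in compound plus LPS against 935, 910 and 494 CPM in LPS (-1.90 ± 0.35, adjusted p = 0.0088), and Cd86, a costimulatory ligand, fell by 2.51 ± 0.40. H2-Eb1, Cd74 and H2-Ab1 of the class II pathway were at most 54.2 CPM in every library of both groups and fell by 2.52, 1.55 and 2.03. With the replicate block H2-Ab1 had an adjusted p of 0.071. Fc receptors bind antibodies. Of 7 tested members of the list of Fc receptors and related genes, 4 were lower, with and without LPS replicate 3. Fcgr1, the high-affinity IgG receptor, had 53.5, 47.2 and 71.2 CPM in compound plus LPS against 522, 475 and 448 CPM in LPS (-3.07 ± 0.33, adjusted p = 0.00062). Fcgr4, Fcgr2b and Fcrls fell by 3.79, 2.56 and 2.10, and Fcrls had an adjusted p of 0.052 with the block. Of 14 complement genes, 3 were lower, namely Cfb (-2.29), C1qa (-2.15) and C3 (-2.09), and 5 were lower with the block. Leaving out LPS replicate 3 gave 6 lower and 1 higher, the integrin chain Itgax (2.24). Fcgr1 was also the member of the 16 macrophage markers that was called, and without LPS replicate 3 it was 2 lower.

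Receptors and signalling genes upstream of these responses were divided. Of 23 Toll-like receptors and adaptors tested, 3 were higher and 3 lower, and without LPS replicate 3 it was 4 higher and 5 lower. Of all genes, 3.18% were higher and 4.43% lower, and without that library 7.5% and 9.34%. Tlr4, the LPS receptor, had 107, 96.1 and 101 CPM in compound plus LPS against 42.6, 20.7 and 11.4 CPM in LPS (1.96 ± 0.45, adjusted p = 0.026). Tlr13, a sensor of bacterial ribosomal RNA, and Irak1, a kinase downstream of the receptors, rose by 2.46 and 1.68. The nucleic acid sensors Tlr9, Tlr3 and Tlr7 fell by 3.10, 2.10 and 1.68. Tlr9 had 12.8, 10.8 and 23.1 CPM in compound plus LPS against 126, 108 and 168 CPM in LPS. The dual specificity phosphatases that switch off MAP kinases were split likewise, with Dusp4 (3.54 ± 0.41) and Dusp6 (2.69 ± 0.62) higher and Dusp2 (-4.02 ± 0.47) and Dusp1 (-1.48 ± 0.33) lower, of 10 tested. The counts were 2 higher and 3 lower without LPS replicate 3.

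Of 20 NF-kB subunits and inhibitors, 4 were lower and none higher, and without LPS replicate 3 it was 7 lower. Otud1, a deubiquitinase, fell by 3.52, and Rel, the c-Rel subunit, had 210, 164 and 170 CPM in compound plus LPS against 443, 468 and 535 CPM in LPS (-1.41 ± 0.30, adjusted p = 0.018). Ikbke and Tnip3 fell by 1.33 and 1.32. Nfkbiz encodes IkB-zeta, a nuclear cofactor needed for a late set of LPS genes. It had 125, 147 and 107 CPM in compound plus LPS against 285, 215 and 69.7 CPM in LPS. Here LPS replicate 3 lay below all the other libraries, and the log2 fold change was -0.60 ± 0.45 (adjusted p = 0.51) with it and -0.99 (adjusted p = 0.018) without it. Of 10 tested genes reported to depend on IkB-zeta, 5 were lower and none higher, with and without LPS replicate 3. With all libraries these were Edn1, Ccl22, Il12b, Il6 and Saa3, an acute-phase protein (-2.74 ± 0.33). Atf3, a stress-induced repressor of cytokine genes, was not called (0.28 ± 0.41, adjusted p = 0.75).

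Of 19 genes for JAK kinases, STAT factors and their inhibitors, 5 were lower and none higher. Without LPS replicate 3 it was 11 lower and 1 higher of 20, where the higher gene was the phosphatase Ptpn1 (1.26). Stat3, the factor downstream of IL-6 and IL-10, had 136, 157 and 180 CPM in compound plus LPS against 814, 665 and 1613 CPM in LPS (-2.70 ± 0.41, adjusted p = 0.0037), and Stat5a fell by 3.36 ± 0.37. These genes overlap on opposite strands, so each may hold reads of the other. The inhibitors Socs1 and Socs3 fell by 2.96 and 2.72. Socs1 had 549, 449 and 1495 CPM in LPS, and its log2 fold change was -2.22 without LPS replicate 3. Socs2, at most 15.7 CPM in every library, fell by 4.23 with an adjusted p of 0.059 under the block. Irf8, a factor that fixes macrophage identity and interferon responses, was the called member of 7 interferon regulatory factors, and without LPS replicate 3 it was 3 lower. It had 136, 156 and 233 CPM in compound plus LPS against 1207, 1236 and 4012 CPM in LPS (-3.62 ± 0.55, adjusted p = 0.0037), and without LPS replicate 3, the highest, it was at -2.80. Maf, a factor of resident macrophages, fell by 3.46 ± 0.33, while Cebpa, a myeloid factor (58.4, 53.4 and 82.3 CPM in compound plus LPS against 10.1, 1.73 and 1.42 CPM in LPS), and Bhlhe41 rose by 3.62 and 3.77.

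Of 20 inflammasome and pyroptosis genes tested, 7 were lower and 1 higher, and without LPS replicate 3 it was 9 lower and 3 higher. Beside the IL-1 family genes above, those called with all libraries were Pycard, the adaptor ASC (14.3, 13.1 and 15.8 CPM in compound plus LPS against 85.5, 87.2 and 111 CPM in LPS), Casp8 (-2.14 ± 0.37) and Casp4 (-1.18 ± 0.31), with Naip2, a sensor of bacterial secretion systems, higher (2.19 ± 0.36). Among 18 inflammatory effector enzymes, 2 were higher and 3 lower, and without LPS replicate 3 it was 5 higher and 4 lower. Hdc, which makes histamine, fell by 3.04 ± 0.49 along with Nos2 and Ch25h. Alox5ap, needed for leukotriene synthesis, rose by 2.15 ± 0.39. Acod1 had 8801, 16681 and 6879 CPM in compound plus LPS against 13019, 15788 and 5478 CPM in LPS. Its groups overlapped (-0.08 ± 0.51, adjusted p = 0.95).

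In central metabolism, 6 of 31 genes of glycolysis and HIF-1 targets were higher and 3 lower, with a median of 0.8, and without LPS replicate 3 it was 7 higher and 5 lower. Pgk1, Pgam1, Aldoa and Pkm, enzymes of glycolysis, and Slc2a1, the glucose transporter GLUT1, rose by 1.57, 1.46, 1.35, 1.37 and 1.45. Hk2 (-2.02 ± 0.44), which starts glycolysis, Pfkfb3 (-2.06 ± 0.41), which makes its activator, and the lactate transporter Slc16a1 (-3.07 ± 0.46) were lower. Hk2 had 148, 195 and 454 CPM in LPS, and without LPS replicate 3 its log2 fold change was -1.40. Hif1a had 148, 146 and 144 CPM in compound plus LPS against 264, 386 and 71.1 CPM in LPS. LPS replicate 3 lay below all other libraries, and the log2 fold change was -0.73 ± 0.49 (adjusted p = 0.45) with it and -1.15 (adjusted p = 0.0064) without it. None of 28 genes of the citric acid cycle and succinate oxidation and none of 70 of the respiratory chain and ATP synthase were called, with medians of 0.29 and 0.14. Without LPS replicate 3 the counts were again 0 of 28, and 1 higher and 1 lower of 70. Of all genes tested, 7.62% were called with all libraries and 16.8% without LPS replicate 3. In Sdha, the catalytic subunit of succinate dehydrogenase, the groups overlapped (0.20 ± 0.46, adjusted p = 0.84).

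Counts in the stress-response lists stand beside 3.18% of all genes tested called higher and 4.43% called lower. Without LPS replicate 3 these shares of all genes were 7.5% and 9.34%. Of 21 targets of ATF4, the factor of the integrated stress response, 2 were higher (Gdf15 and Eprs) and 2 lower (Nupr1 and Wars), and without LPS replicate 3 it was 9 higher and 3 lower of 23. With the block it was 5 higher and 2 lower of 21. Of 21 genes of the endoplasmic reticulum stress response 1 was higher, Calr (1.40 ± 0.37), and without LPS replicate 3 it was 2 of 22. Of 19 heat shock chaperones and factors 2 were higher, Dnajb4 (3.17 ± 0.42) and Hsf2 (1.92 ± 0.44), and without LPS replicate 3 it was 3 higher and 2 lower. Of 33 proteasome subunits 3 were higher, Psmc1, Psmd11 and Psmc2 (2.07, 1.56 and 1.52), and without LPS replicate 3 it was 6 of 33. Of 34 lysosomal genes 3 were higher, namely Sqstm1, Lipa, the lysosomal acid lipase (2.35 ± 0.45), and Atp6v1h (1.88 ± 0.39), and 1 was lower, the protease Ctsc (-1.45 ± 0.30). The counts were 4 higher and 2 lower of 35 without LPS replicate 3.

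Some remaining changes concerned single genes with high levels. Mmp12, macrophage elastase, had 4015, 3098 and 4273 CPM in compound plus LPS against 479, 519 and 415 CPM in LPS (3.01 ± 0.35, adjusted p = 0.00093). Mmp14 and Mmp13, a membrane-bound metalloproteinase and a collagenase, fell by 4.63 and 2.15, and their LPS values (595, 459 and 2111 CPM for Mmp14) were highest in replicate 3. Without that library the log2 fold change of Mmp14 was -3.63. Cd36, a scavenger receptor for oxidised lipoproteins, had 2302, 2447 and 2000 CPM in compound plus LPS against 474, 425 and 273 CPM in LPS (2.52 ± 0.36, adjusted p = 0.0026), while Msr1, another scavenger receptor, fell by 1.21. Clec7a, the beta-glucan receptor Dectin-1, rose by 1.90 ± 0.37.

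Among cyclins D and inhibitors of cyclin-dependent kinases, 2 were higher and 2 lower of 13 tested, and without LPS replicate 3 it was 3 higher and 5 lower of 14. Ccnd2 had 24.7, 19.8 and 23.8 CPM in compound plus LPS against 633, 879 and 572 CPM in LPS (-4.93 ± 0.37, adjusted p = 0.00023), and Ccnd1 fell by 4.98 ± 0.53. Cdkn2b and Cdkn1c, inhibitors of cell division, rose by 3.84 ± 0.60 and 3.12 ± 0.45. None of 17 cell cycle genes tested was called with all libraries, where 7.62% of all genes were called. Without LPS replicate 3, 2 of 19 were lower, beside 9.34% of all genes.

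Actb was itself different between the groups. It had 3017, 2951 and 2984 CPM in compound plus LPS against 11888, 13955 and 7751 CPM in LPS (-1.91 ± 0.39, adjusted p = 0.014). Per the labels, libraries were pooled by their Actb level measured by PCR, and the compound plus LPS libraries held more counts than the LPS libraries. How far the pooling set the depth was not tested.

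Markers of other cell types were low in both groups. The 14 neutrophil and progenitor markers summed to between 359.6 and 487.8 CPM in compound plus LPS and between 209.3 and 371.4 CPM in LPS, with Mpo at 0, and Mmp8 was the called member (2.71 ± 0.47). The 12 dendritic cell markers summed to between 72.8 and 138.4 CPM in compound plus LPS and between 119.9 and 201.9 CPM in LPS, with Flt3, Dpp4 and Cd209a at 0. The 13 stromal and endothelial markers summed to between 28 and 39.8 CPM in compound plus LPS and between 37.9 and 65.4 CPM in LPS, with Lum and Thy1 at 0, and Kdr and Col3a1 were lower (-4.15 ± 0.98 and -4.89 ± 1.14, the second with an adjusted p of 0.058 under the block and at -3.83 without LPS replicate 3). The 12 T and NK cell markers summed to at most 2.68 CPM in compound plus LPS and 17.6 CPM in LPS, with 7 at 0, among them Cd3e, Cd8a and Ncr1. Lck, a T-cell kinase, had 2 counts in compound plus LPS and 69 in LPS, a ratio of 75.5 with a counting interval from 20.1 to 636. B cell and erythroid markers summed to at most 3.49 CPM in every library of both groups. The part of these cells in the changes above was not tested.

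The effect of the compound was then compared with and without LPS. The difference between the change with LPS and the change of compound over vehicle without LPS was tested in a fit of all 12 libraries of the experiment. Of 10285 genes tested, 299 (2.91%) differed, 143 (1.39%) with the effect higher with LPS and 156 (1.52%) with it lower. The same fit called 862 genes (8.38%) higher and 774 (7.53%) lower for compound plus LPS over LPS, 15.9% in all, and 292 (2.84%) for compound over vehicle. Of the 299, the effect of the compound was called for 252 with LPS and not without, and for 18 without LPS and not with it. It was called in both in the same direction for 7 and in opposite directions for 14, and the remaining 8 passed in neither. Of the 8575 genes of the 6-library test, 280 were called for compound over vehicle without LPS, and 124 were called in both comparisons. The groups compared share no library, but the calls without LPS came from the 12-library fit. Its scaling and spread also draw on the compound plus LPS and LPS libraries, so these sets of calls are not independent. The 124 were 19% of the calls with LPS and 44.3% of those without. For scale, 653 (7.62%) of all 8575 genes were called with LPS, and 280 of all 8575 were called without LPS. Of the 124, 114 had the same direction, 62 higher and 52 lower.

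The 10 genes with the smallest p of this difference fell into a few patterns. Slc40a1 and Rabgap1l were higher with the compound under LPS and not called without LPS (0.32 ± 0.29 and 0.27 ± 0.29). Slc40a1 was at 291, 281 and 463 CPM in compound without LPS and 243, 238 and 352 CPM in vehicle without LPS. LPS was the lowest of the 4 groups, and compound plus LPS, at 148, 155 and 154 CPM, also lay below both groups without LPS. Rabgap1l was at 11.7 to 18.2 CPM in compound without LPS and 10.4 to 14.4 CPM in vehicle without LPS, and compound plus LPS was the exception. Ccnd2 and Il1rn were lower with the compound under LPS and not called without it (0.20 ± 0.33 and 0.61 ± 0.32). Mir155 (the gene of the microRNA miR-155, counted here as polyadenylated RNA), Cxcl9, Socs3 and Cd69, an early activation marker, were lower with the compound under LPS and higher with it without LPS. For Mir155 the libraries were at 19.4, 34.8 and 20 CPM in compound plus LPS and 204.5, 269.9 and 177.8 CPM in LPS, and at 2.6, 3.7 and 2 CPM in compound without LPS and 0.2, 0 and 0.1 CPM in vehicle without LPS. Gbp4 had the same signs, with the change without LPS not called (1.77 ± 0.61, adjusted p = 0.15). Tarm1, an activating receptor of myeloid cells, rose without LPS (4.17 ± 0.40, adjusted p = 1.8e-05) and had overlapping groups with LPS (-0.13 ± 0.28, adjusted p = 0.8).

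**Figure D5:**
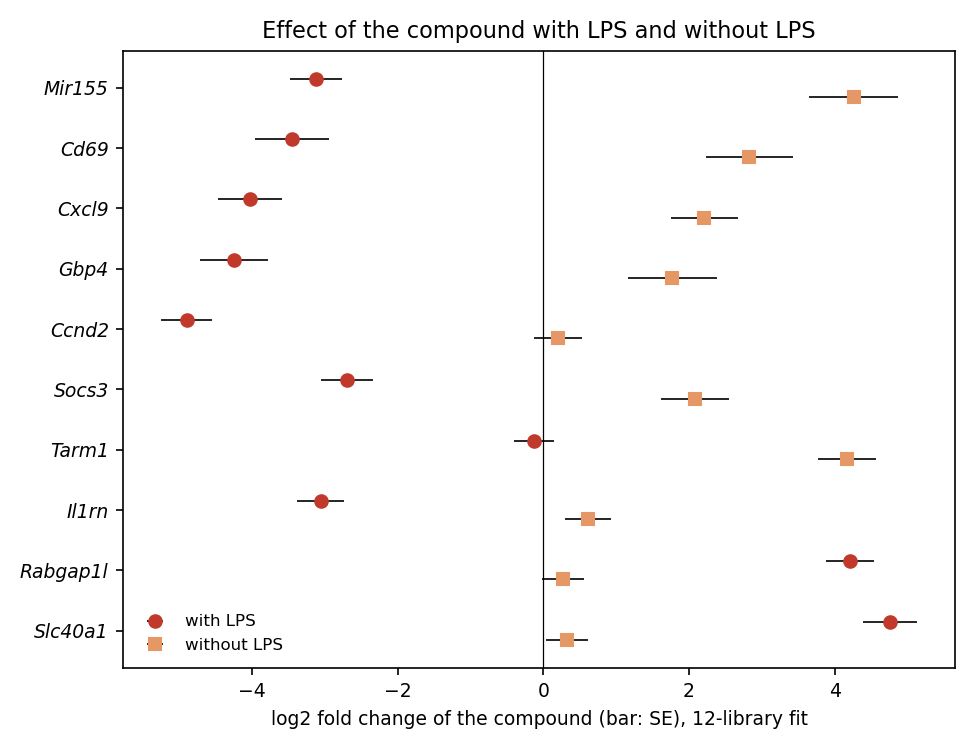
Log2 fold change of the compound with LPS (circles, compound plus LPS over LPS) and without LPS (squares, compound over vehicle) for the 10 genes with the smallest p of the difference, with bars of 1 standard error from the 12-library fit. Slc40a1 and Rabgap1l are higher with LPS and near 0 without it, and Mir155, Cd69, Cxcl9 and Socs3 lie on opposite sides of 0.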

How the data were processed

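RNA of 12 libraries of mouse macrophages was used, 6 for the comparison and 6 more for the test of the difference with and without LPS. Experiment 2 of the series was not used. The deposited table holds raw read counts per gene, as the authors left them. Per the submitters' processing notes, STAR, HTSeq, DESeq2 and build mm10 were used, with no roles or versions given. Per the labels, cDNA was made from the 3′ end with barcoded oligo-dT primers, libraries were pooled by Actb PCR values and amplified over 12 cycles, and they are strand-specific. No molecular identifiers are described, so intervals and floors cover counting error only. Of 24052 Entrez identifiers, 23969 matched a symbol in the RefSeq GRCm38.p6 table. The unmatched held at most 0.738% of a library.

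The fit of the 6 libraries used edgeR 4.0.16 (R 4.3.3) with TMM scaling (filterByExpr with a minimum count of 10, a mean per group, 2-sided quasi-likelihood F test, 4 residual degrees of freedom, prior count 0.125), with Benjamini-Hochberg adjustment over all genes tested and a call at 0.05. The difference with and without LPS was a contrast in a 12-library fit with 8 residual degrees of freedom. Genes at 0 in a group got a bound against 3 counts over the group. Alternatives were each replicate left out, all 12 libraries in the fit, a replicate block, DESeq2 1.42.0, limma 3.58.1 (voom with sample weights), other scalings and no filter. The 6 libraries held 955718 to 5959474 counts, so 3 counts were 3.14 to 0.503 CPM. In simulated data with 200 of 8575 genes changed, the 6-library fit recovered 0% of 2-fold and 26.4% of 4-fold changes. It made 23 calls, of which 0% were false. The fit of the difference, with 200 of 10285 genes changed, recovered 0% and 19.8%, and 9.5% of its 21 calls were false. A gene that was not called may therefore still differ between the groups. The shares of false calls rest on these few calls. Whether they hold for data with a library as far apart as LPS replicate 3, or with as many as 653 genes called, was not tested.

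Deviations from the group mean correlated in all 3 same-numbered pairs (0.16, 0.156 and 0.244), so the replicate block is given where it changes a call. Genes named in full were the 12 highest increases and 12 highest decreases called with and without LPS replicate 3, changed alike in all 3 same-numbered pairs and at 20 CPM or more in the higher group, then up to 3 called members per list and direction, a fixed set of inflammatory and NRF2 genes, and the 10 smallest p of the difference. Other list members are named where a list is described, and some genes that the rule selects are not reported here. The groups, gene lists and tests were chosen with earlier results of these data known.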

Additional observations from a re-analysis of the deposited data

Results flagged for a closer look

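The 10 genes below were picked out because the effect of the compound differed between cells with LPS and cells without LPS, by the test of that difference in the 12-library fit. The difference (change with LPS minus change without LPS, log2) was -5.11 ± 0.47 for Ccnd2 and -3.68 ± 0.45 for Il1rn, which the compound lowered with LPS and did not change past the threshold without it. It was -7.38 ± 0.68 for Mir155, -6.24 ± 0.63 for Cxcl9, -6.28 ± 0.78 for Cd69 and -4.78 ± 0.59 for Socs3, whose changes had opposite signs and passed the test in both arms. It was -6.02 ± 0.75 for Gbp4 and -4.3 ± 0.49 for Tarm1. It was 4.43 ± 0.46 for Slc40a1 and 3.94 ± 0.43 for Rabgap1l, which the compound raised with LPS. Adjusted p-values of these 10 differences ran from 1.5e-05 to 0.00023, with 3 libraries in each of the 4 groups, and they kept their direction and their call under each alternative run, without LPS replicate 3 included. Without LPS, Mir155, Socs3, Gbp4, Tarm1, Cxcl9 and Cd69 were at 0 to 3.8 CPM in the vehicle libraries, so the size of their change there depends on few counts. For Tarm1 the difference rests on that change.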

How the results depend on the processing

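Counts of genes depended on the libraries and the tool more than on scaling. Leaving out 1 library at a time gave 62 to 680 genes higher and 82 to 847 lower, against 273 and 380. The low ends came without compound plus LPS replicate 1, 2 or 3 (65, 62 and 96 higher, 83, 82 and 127 lower) and the high ends without LPS replicate 3. With all 12 libraries in the fit 862 were higher and 774 lower, with DESeq2 490 and 694, and with limma voom with sample weights 566 and 765. These 3 held all 273 higher genes and, but for 1 gene in the 12-library fit, all 380 lower genes. Scaling by library totals gave 246 higher and 239 lower and moved the median of all genes to 0.26, against 0.08. The replicate block gave 344 higher and 435 lower, of which 244 and 350 were shared, with 2 residual degrees of freedom. It ended the call of 6 named genes, Ifnb1, Socs2, H2-Ab1, Gm4841, Plat and Col3a1, and of Fcrls, and gained Nfe2l2 and Nqo1. Prdx1 changed sign and was called at 1.54 without LPS replicate 3, within -0.44 to 1.54 over the libraries left out. None of the 140 named genes called in the 6-library test changed sign under an alternative. The difference with and without LPS was called for 299 genes, for 132 to 806 with 1 library left out, for 497 without the filter and for 760 with DESeq2. The cause of these shifts was not tested. Common dispersion was 0.183 with all 6 libraries and 0.0947 without LPS replicate 3. The smallest log2 fold changes called with all 6 libraries were 1.25 and -1.11. Some called fold changes of genes in the report, beside those of Tacc2, Acss2, Shisa3 and Lck, which rest on 1 to 3 counts in a group, moved by over 1.5 times without a library other than LPS replicate 3. Without LPS replicate 1 the log2 fold change was 6.88 for Slpi, 5.83 for Hsd3b7, 5.29 for Cebpa, 3.41 for Mmp8 and 2.61 for Tlr4. Without LPS replicate 2 it was 5.57 for Gss, 5.42 for Mfsd6 and 5.06 for Me1. Without compound plus LPS replicate 1 it was -6.1 for Igsf9, without replicate 2 it was -5.09 for Kdr, and without replicate 3 it was -4.9 for Ifit1bl1. Igsf9 and Kdr were not called there, nor was Lck without compound plus LPS replicate 1 or 3.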
